A study of Mus musculus with 4 samples.

Results

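The Usp17l genes encode a family of deubiquitinases, also called the DUB or USP17 enzymes. On the arrays described here the family was taken as every probe whose gene name starts with Usp17l, which gave 5 genes (Usp17la, Usp17lb, Usp17lc, Usp17ld and Usp17le) read by 7 probes, of 39429 probes on the array. Usp17la and Usp17lc had 2 probes each and the other genes had 1. RNA came from E14tg2a, an established line of mouse embryonic stem (ES) cells that the methods describe as grown on gelatin with serum and LIF, without feeder cells. The conditions were untreated cells (0 h), cells given control siRNA and harvested at 72 h, and cells given Rif1 siRNA for 48 h or for 72 h. According to the methods, the Rif1 siRNA was a mixture of siRNAs against Rif1, a regulator of replication timing and of chromatin. Each condition had 1 one-color array, and all arrays were on 1 slide. With single arrays there are no replicates and no p-values are given, and the spread between cultures of one condition is not known.

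Deubiquitinases of the ubiquitin-specific protease class are cysteine proteases that remove ubiquitin from proteins and so counter their degradation or signaling. Usp17la (Dub1), Usp17lb (Dub1a), Usp17lc (Dub2) and Usp17ld (Dub2a) were first described in blood cell lines as genes induced early by cytokines, Dub1 by interleukin 3 and Dub2 by interleukin 2. The genes stand in tandem arrays among olfactory receptor genes, are close to identical in much of their sequence, and count among the transcripts of the 2-cell embryo that a small share of ES cells also expresses.

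The probes were examined first, since near-identical genes can be read by one another's probes. Each probe was 60 bases long and lay on chromosome 7 of mm9, the build of the array files, and the 7 probes spanned 1612 kb. The Usp17ld probe (A_55_P2002988, chr7:110398772-110398831, minus strand) and one Usp17lc probe (A_55_P2144256, chr7:110567420-110567479, plus strand) were identical at 56 of 60 bases. Capitals mark the bases at which each differs from the other, which are T42C, C51T, A54C and C58T from Usp17lc to Usp17ld, counted from the 5′ end of the probe.
Usp17ld A_55_P2002988: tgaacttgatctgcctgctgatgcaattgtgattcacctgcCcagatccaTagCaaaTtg
Usp17lc A_55_P2144256: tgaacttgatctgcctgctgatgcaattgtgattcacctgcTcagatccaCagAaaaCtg

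The other Usp17lc probe (A_55_P2002802, chr7:110568320-110568379, plus strand) started 900 bases further along and resembled one Usp17la probe (A_55_P2002795, chr7:112011106-112011165, plus strand), with 52 of 57 aligned bases identical. It also resembled a probe that carries no Usp17l name, AK155468 (A_55_P2082703, chr7:111802099-111802158, plus strand), with 58 of 60 bases identical. The sequences are shown because they tie 3 of the largest changes below to one stretch of sequence. Capitals mark the bases that differ from the Usp17lc probe, and AK155468 differs from it by C4A and A46G.
Usp17lc A_55_P2002802: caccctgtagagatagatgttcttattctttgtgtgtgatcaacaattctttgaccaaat
Usp17la A_55_P2002795: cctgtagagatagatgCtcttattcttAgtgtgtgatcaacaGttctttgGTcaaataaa
AK155468 A_55_P2082703: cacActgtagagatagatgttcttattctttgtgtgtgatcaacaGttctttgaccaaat

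The remaining probes resembled the others less, the Usp17lb probe in part and the other probes hardly. The Usp17lb probe (A_55_P2113091, chr7:111988826-111988885, minus strand) matched the Usp17ld probe and the first Usp17lc probe at 42 of 59 aligned bases, with no shared run over 10 bases. The Usp17le probe (A_52_P345966, chr7:111917188-111917247, minus strand) and the second Usp17la probe (A_55_P2002792, chr7:112010796-112010855, plus strand) matched each other Usp17l probe at no more than 22 bases. No run of 16 bases of these 3 probes was found in any other of the 39429 probes.
Usp17lb A_55_P2113091: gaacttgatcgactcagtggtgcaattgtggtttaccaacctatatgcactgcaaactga
Usp17le A_52_P345966: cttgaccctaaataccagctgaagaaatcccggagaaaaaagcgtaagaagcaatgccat
Usp17la A_55_P2002792: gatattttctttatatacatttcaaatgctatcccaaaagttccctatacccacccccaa

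The array files assign both Usp17la probes to the same transcript. Their starts lay 310 bases apart, and A_55_P2002795 was the one further along the gene. It ends in the letters AATAAA, which as a polyadenylation signal usually stand near the end of a transcript. Of the Usp17l probes it was the only one with these letters, which were held by 12.6% of the probes on the array. Which exon each probe lies in was not examined.

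**Figure D1:**
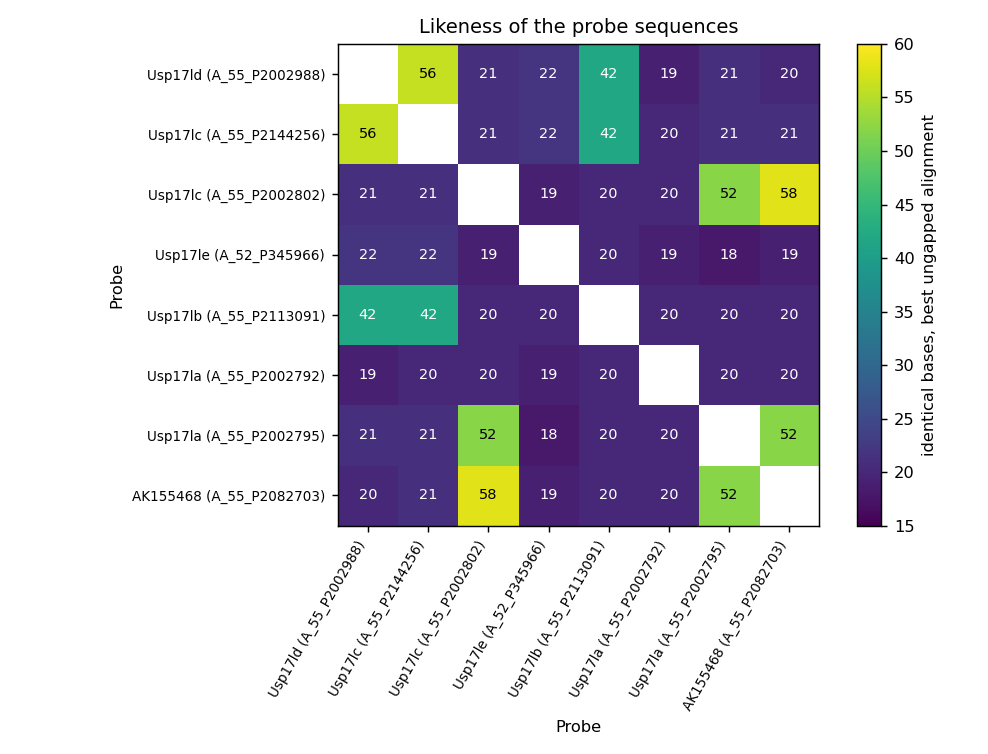
Number of identical bases between each pair of probes in their best ungapped alignment, for the 7 Usp17l probes and AK155468. Bright cells mark a pair of Usp17ld and Usp17lc probes (56 bases) and a group of Usp17lc, Usp17la and AK155468 probes (52 to 58 bases), whereas Usp17la A_55_P2002792 reaches 20 bases at most. The Usp17lb probe shares 42 bases with the Usp17ld probe and with Usp17lc A_55_P2144256.

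Expression levels are given as the processed signal divided by the 75th percentile of the array, and errors are those of the array software for the single spot. A level serves to compare arrays for one probe, not probes with each other. The targeted gene, Rif1, was read by 1 probe, with levels of 5.55 (untreated), 5.42 (control siRNA), 2.15 (Rif1 siRNA, 48 h) and 4.15 (Rif1 siRNA, 72 h). The share of spots well above background ran from 58.8% on the untreated array to 74.1% on the Rif1 siRNA array at 72 h. Of the 28 values of the Usp17l probes, 26 were well above background, and the 2 that were not came from untreated cells.

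With Rif1 siRNA at 72 h, 6 of the 7 Usp17l probes were 9.21-fold to 24.6-fold higher than with control siRNA, and each of the 5 genes had such a probe. The background is 2.83% of 27706 probes over 2-fold higher in that comparison. The median over all 7 probes was 4.32 on the log2 scale, whereas it was -0.07 over the 24312 probes measured on both arrays. All 7 probes passed the filter on low values. With normexp, a model-based background correction used here with an offset, 6 probes were over 2-fold higher and the family median was 3.001. In RNA from whole cultures, more cells that express a gene and more RNA in each cell cannot be told apart.

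Usp17la was read by one of the probes with the largest rises and by the probe that hardly moved. A_55_P2002795 had a level of 0.0819 ± 0.0107 without treatment and 0.183 ± 0.019 with control siRNA, against 4.43 ± 0.44 after 48 h and 4.49 ± 0.45 after 72 h of Rif1 siRNA. Both Rif1 siRNA arrays thus stood far above the others, by 24.6-fold at 72 h over control siRNA (log2 difference 4.62 ± 0.21). In the same order A_55_P2002792 had levels of 0.0426 ± 0.0079, 0.0336 ± 0.0055, 0.0468 ± 0.0052 and 0.0455 ± 0.0049. Its level at 72 h of Rif1 siRNA was 1.35-fold that with control siRNA (log2 difference 0.44 ± 0.28) and 1.07-fold that of untreated cells (0.10 ± 0.31). With normexp it was 1.027-fold that with control siRNA at 72 h and 1.075-fold at 48 h. This probe was well above background on all 4 arrays, and its signal stood at the 43.1 percentile of spots with control siRNA and at the 45.6 percentile with Rif1 siRNA at 72 h. The rise of the first probe was 18.1 times that of the second, a log2 difference of 4.18 ± 0.35 between probes of one gene.

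The other Dub1 gene, Usp17lb, followed the Usp17la probe that rose. It stood at 0.0620 ± 0.0079 without treatment and 0.126 ± 0.013 with control siRNA, against 3.25 ± 0.33 at 48 h and 2.99 ± 0.30 at 72 h of Rif1 siRNA. The rise over control siRNA was 25.7-fold at 48 h and 23.7-fold at 72 h (log2 difference 4.57 ± 0.21). Among 25887 probes with a value at 72 h, A_55_P2002795 of Usp17la ranked 32 from the top, Usp17lb 35 and A_55_P2002802 of Usp17lc 39. Of these probes 24312 were measured on both arrays and the rest have bounds, so the ranks are not exact.

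For Usp17lc, the Dub2 gene, both probes rose. Unlike the Usp17la probes, they are assigned to different transcripts by the array files, and whether they read one transcript was not examined. A_55_P2002802 moved from 0.267 ± 0.027 (untreated) and 0.374 ± 0.038 (control siRNA) to 8.24 ± 0.82 at 48 h and 8.68 ± 0.87 at 72 h. Its spot moved from the 66.3 percentile of its array with control siRNA to the 91.6 percentile with Rif1 siRNA at 72 h. A_55_P2144256 had 0.0331 ± 0.0060 with control siRNA, 0.569 ± 0.057 at 48 h and 0.662 ± 0.066 at 72 h, and it was not well above background in untreated cells (0.0224 ± 0.0076). The rises at 72 h were 23.2-fold and 20.01-fold. The difference between them, 0.21 ± 0.36 on the log2 scale, was smaller than its error. It depends on the background correction, however, and was 1.39 with normexp, under which A_55_P2144256 rose 8.004-fold and A_55_P2002802 20.9-fold.

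Usp17ld (Dub2a) rose less than the Usp17lc probe that it resembles. Its values were 0.0641 ± 0.0093 (untreated), 0.0753 ± 0.0088 (control siRNA), 0.628 ± 0.063 (48 h) and 0.694 ± 0.069 (72 h). The rise of 9.21-fold at 72 h (log2 difference 3.20 ± 0.22) was 1.12 ± 0.37 below that of A_55_P2144256 on the log2 scale, a gap that was 0.47 with normexp. Usp17le (Dub3) gave a like value, 9.93-fold at 72 h (3.31 ± 0.22), with levels of 0.0689 ± 0.0077 with control siRNA, 0.667 ± 0.067 at 48 h and 0.685 ± 0.068 at 72 h. In untreated cells its spot was not well above background (0.0171 ± 0.0053). The 6 probes thus fell into rises of 9.21-fold and 9.93-fold for Usp17ld and Usp17le and of 20.01-fold to 24.6-fold for probes of the other genes. With normexp this grouping did not hold, since A_55_P2144256 of Usp17lc (8.004-fold) then stood beside Usp17le (6.53-fold) and Usp17ld (5.797-fold) and the other 3 at 18.2-fold to 20.9-fold.

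**Figure D2:**
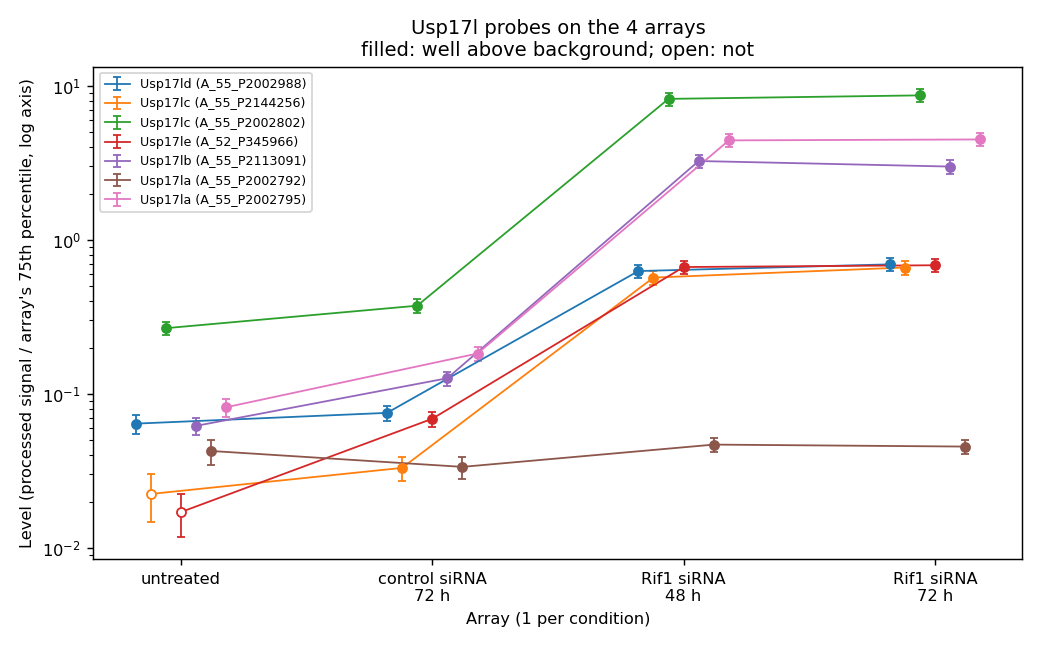
Level of each Usp17l probe on the 4 arrays (processed signal over the array's 75th percentile, log axis), with the software's error of the single spot as bars. Lines join the values of one probe; open circles are not well above background. Levels of 6 probes stand between 0.569 and 8.68 with Rif1 siRNA, and Usp17la A_55_P2002792 stays between 0.0336 and 0.0468 on all arrays.

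At 48 h the picture differed little from that at 72 h. Over the same control siRNA array, which was harvested at 72 h, 6 of the 7 probes were over 2-fold higher (background 3.17%), by 8.34-fold to 25.7-fold. With normexp these rises ran from 5.34-fold (Usp17ld) to 19.8-fold, and the probe A_55_P2144256 of Usp17lc stood at 6.82-fold. Set directly against each other, 72 h over 48 h of Rif1 siRNA, no Usp17l probe was over 2-fold higher (background 0.491%), and the log2 differences ran from -0.12 (Usp17lb) to 0.22 (Usp17lc A_55_P2144256). Of these 7 differences, 6 were smaller than the software's error and that of A_55_P2144256 was 0.22 ± 0.20. The level of Rif1 itself rose between the same arrays, from 2.15 to 4.15.

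Control siRNA was compared with untreated cells to see what the family did without loss of Rif1. Here 3 of the 7 probes were over 2-fold higher (background 0.585%, and 1.03% over 2-fold lower): Usp17le by at least 2.92-fold, a lower bound because its spot in untreated cells was not well above background, Usp17la A_55_P2002795 by 2.23-fold and Usp17lb by 2.04-fold. Usp17lc A_55_P2002802 was 1.40-fold higher (log2 difference 0.49 ± 0.21), and A_55_P2144256 was at least 1.40-fold higher. Usp17ld (0.23 ± 0.27) and Usp17la A_55_P2002792 (-0.34 ± 0.36) differed by less than their errors. With normexp background correction none of the 7 was over 2-fold higher in this comparison. Transfection, 72 h of culture and the difference between single cultures cannot be told apart here. Over untreated cells, the rise at 72 h of Rif1 siRNA was 54.8-fold for A_55_P2002795 and 48.3-fold for Usp17lb.

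**Figure D3:**
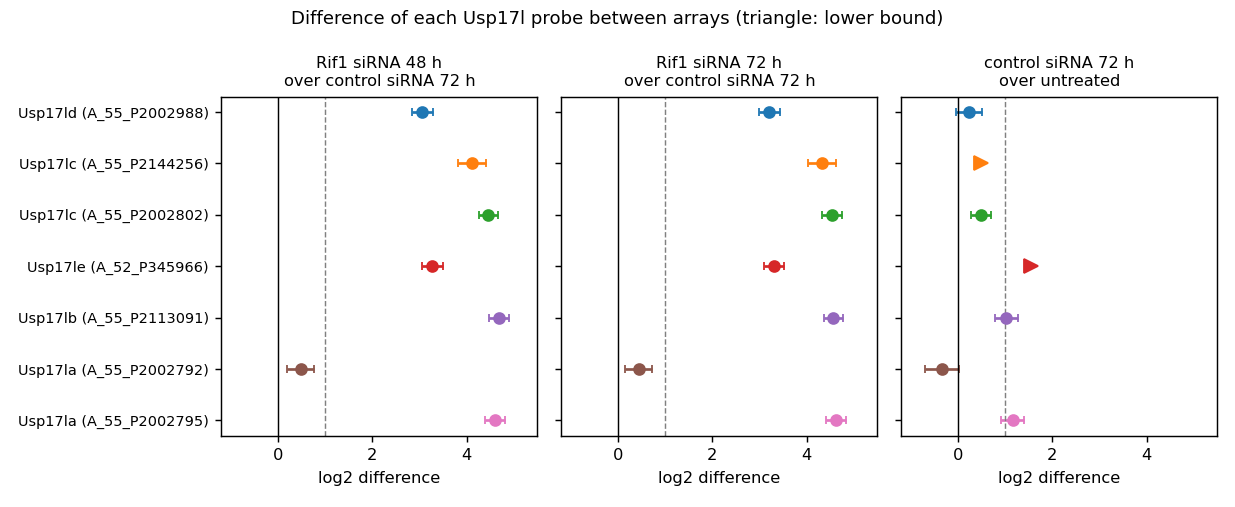
Log2 difference of each Usp17l probe in 3 comparisons of arrays, with the software's error of both spots as bars; triangles are lower bounds, the solid line is no change and the dashed line a 2-fold rise. At both times of Rif1 siRNA 6 probes lie at 3.06 or above, and Usp17la A_55_P2002792 lies at 0.44 and 0.48.

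The probes around the genes were examined next. On mm9, 162 other probes lay between the first and last Usp17l probes or within 500 kb of one, of which 119 carried olfactory receptor (Olfr) names, and 105 were dim on all 4 arrays. Of the 43 that passed the filter, 2 rose and 3 fell more than 2-fold at 72 h, and the median log2 difference was 0.04. The background over all probes that passed was 2.83% higher and 1.00% lower, and nothing is read from counts this small. One of the 2 was AK155468, whose sequence is shown above. Its level was 0.268 without treatment and 0.528 with control siRNA, against 11.2 and 11.54 after 48 h and 72 h of Rif1 siRNA. The rise was 21.9-fold at 72 h and 21.3-fold at 48 h, close in size to that of the Usp17lc probe that it resembles. It was the only neighbor over 2-fold higher at both times. The array files place it between the olfactory receptor genes Olfr658 and Olfr659, and in the RefSeq table of another build (GRCm38.p6) the gene listed between these is the pseudogene Usp17le-ps. The position was not converted between builds, and by its name AK155468 is not counted with the family here.

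The other neighbor over 2-fold higher at 72 h was a probe of Trim12c (2.00-fold), a member of the tripartite motif ubiquitin ligases. The call of Trim12c was lost with quantile normalization (1.84-fold), with median scaling (1.93-fold) and with normexp (1.21-fold), which left AK155468 over 2-fold. The other Trim12c probes stood at 1.89-fold and at least 1.16-fold. The 3 lower ones had low levels, though both arrays compared were well above background for each: Olfr575, an olfactory receptor, at 0.101 with control siRNA and 0.00956 at 72 h of Rif1 siRNA, Hbb-bh2, a beta-globin gene, at 0.0484 and 0.0165, and Olfr676 at 0.0427 and 0.0113. The other probe of Olfr575, of Hbb-bh2 and of Olfr676 was dim on every array, so these falls rest on single probes. The Trim6 probes between the outer Usp17l genes stood at log2 differences of 0.25, 0.11 and 0.22. Some neighbors that passed the filter had no value at 72 h. Among those with a value and the Usp17l probes, rises over 3-fold at 72 h were thus those of Usp17l probes and of AK155468. Probes well above background on a single array did not pass. Of these, a Trim30d probe, bright at 72 h of Rif1 siRNA alone, was at least 3.39-fold higher. An Olfr630 probe, bright with control siRNA alone, stood at 0.0386-fold at most. For the 105 dim probes no level can be given.

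**Figure D4:**
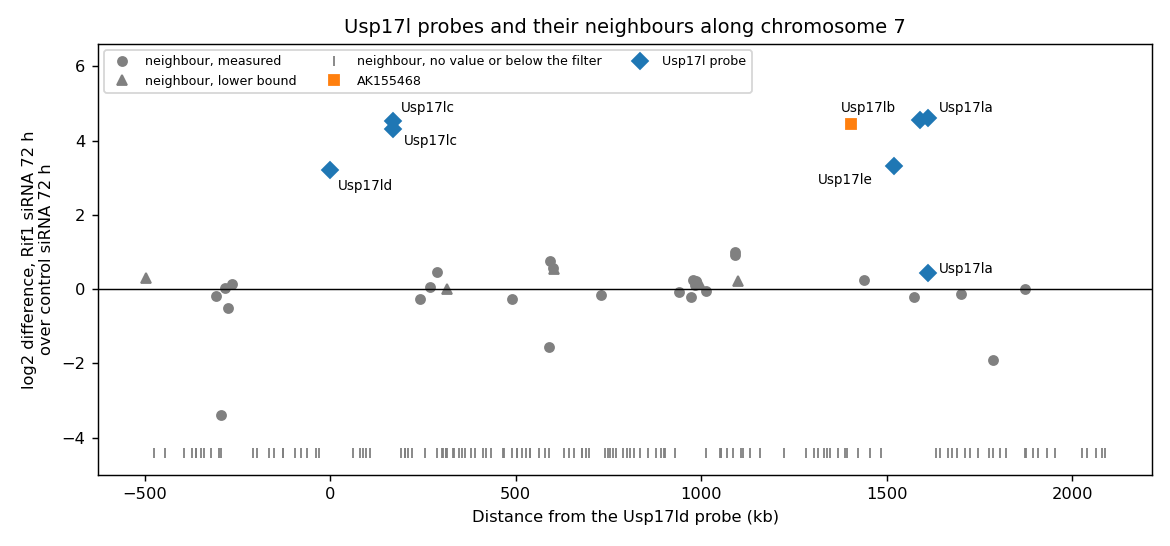
Log2 difference at 72 h of Rif1 siRNA over control siRNA against distance along chromosome 7 from the Usp17ld probe, for the Usp17l probes (diamonds), AK155468 (square) and neighboring probes that passed the filter (grey); upward triangles are lower bounds and ticks are neighbors with no value or below the filter. The Usp17l probes other than Usp17la A_55_P2002792, and AK155468, stand at 3.20 or above, and the grey points at 1.00 or below.

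One more probe shared a run of 16 bases with a Usp17l probe. A_55_P2097908, named Uap1 after an enzyme of amino sugar synthesis on another chromosome, shares such a run with the Usp17ld probe. It was not well above background in untreated cells or with control siRNA, and it was at least 2.14-fold higher at 72 h and at least 1.70-fold higher at 48 h. The other Uap1 probe, which shares no such run, was 1.37-fold higher at 72 h. Binding of Usp17l transcripts to this probe was not tested.

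Promoter sequence was compared because each of the 5 genes had a probe that rose. Which transcripts each probe binds was not examined, so a rise of each gene by itself is not shown. The RefSeq table (GRCm38.p6) lists all 5 gene symbols, and promoters of 300 bases, from 250 before to 50 after the annotated start, were at hand for Usp17la, Usp17lb, Usp17lc and Usp17ld. A stretch of 203 or 204 bases was common to these 4, with 91.6% (Usp17lb and Usp17lc) to 96.6% (Usp17la and Usp17ld) of aligned bases identical. It begins and ends with the same bases in each gene but lies at different distances from the annotated start, its first base being 156 bases before the start in Usp17lb, 171 in Usp17la, 213 in Usp17lc and 235 in Usp17ld. The stretch is printed along the strand of the gene. Capitals mark TATAAA (the TATA box) or, in Usp17la, TTTAAA at the same place, CCACACCC (a CACCC box) and CCAAT or its reverse complement ATTGG (the CCAAT box).
Usp17la (chr7:104856845-104857048, plus strand): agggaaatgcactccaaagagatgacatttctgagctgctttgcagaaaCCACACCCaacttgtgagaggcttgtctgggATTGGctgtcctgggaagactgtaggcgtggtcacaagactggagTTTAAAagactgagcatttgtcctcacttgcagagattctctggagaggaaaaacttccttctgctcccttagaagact
Usp17lb (chr7:104842537-104842739, minus strand): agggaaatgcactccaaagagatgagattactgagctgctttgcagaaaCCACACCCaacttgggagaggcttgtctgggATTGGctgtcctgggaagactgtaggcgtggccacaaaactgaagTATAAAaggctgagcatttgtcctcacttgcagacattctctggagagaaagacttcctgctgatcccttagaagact
Usp17lc (chr7:103416483-103416685, plus strand): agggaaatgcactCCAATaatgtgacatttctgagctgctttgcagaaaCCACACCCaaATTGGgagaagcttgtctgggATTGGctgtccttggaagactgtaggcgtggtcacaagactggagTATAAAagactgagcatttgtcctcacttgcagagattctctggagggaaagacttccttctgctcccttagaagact
Usp17ld (chr7:103252538-103252740, minus strand): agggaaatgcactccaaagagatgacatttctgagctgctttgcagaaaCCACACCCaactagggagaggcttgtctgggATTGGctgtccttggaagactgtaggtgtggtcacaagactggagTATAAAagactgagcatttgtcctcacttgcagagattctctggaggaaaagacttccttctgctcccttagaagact

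Each motif was searched on both strands, and none of the marked ones overlaps another. CCACACCC was found in all 4 promoters and in 3.56% of the 32851 promoters of that length, CCAAT in all 4 and in 37.4%, TATAAA in 3 of the 4 and in 13.6%, and TTTAAA in Usp17la alone of the 4 and in 13.2%. The TATAAA letters began 31 bases before the annotated start in Usp17lb, 88 before it in Usp17lc and 110 before it in Usp17ld, and TTTAAA began 46 before it in Usp17la. The 4 promoters share one near-identical stretch, so their matches are not separate observations, and no enrichment is read from these shares. Such matches describe the sequence, and binding of a factor was not measured.

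The rest of the deubiquitinases were set beside the family. Of the other ubiquitin-specific protease genes, 50 were on the array with 76 probes, of which 72 passed the filter. At 72 h of Rif1 siRNA 0 were over 2-fold higher (background 2.83%) or lower (background 1.00%). At 48 h 0 were over 2-fold higher (background 3.17%) or lower. Their log2 differences at 72 h ranged from -0.99 to 0.73 with a median of -0.01, against 4.32 for the Usp17l probes. The other deubiquitinase classes, from ovarian tumor domain proteases to ubiquitin C-terminal hydrolases and JAMM metalloproteases, gave 38 probes of 33 genes, with 0 over 2-fold changed at 72 h (median -0.04), beside a background of 2.83% higher and 1.00% lower. At 48 h 1 of them was over 2-fold higher (background 3.17%), and nothing is read from this count. It was Otud7a (2.32-fold), an ovarian tumor domain protease, which stood at 0.97-fold at 72 h.

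Genes up and down the known pathway of these enzymes were examined in the same way. The receptors of interleukin 2, 3 and 5 and their JAK and STAT partners carry the cytokine signal known to induce Dub1 and Dub2 in blood cells. With Csf2ra, a receptor gene not among these, they gave 14 probes that passed the filter, of 17 probes of 13 genes. None was over 2-fold higher or lower at 72 h (median log2 difference -0.11, from -0.28 to a lower bound of 0.42 for a Csf2rb probe) or at 48 h (median 0.11). Genes for 7 reported substrates of human USP17 had 10 probes, of which 8 passed, from 6 genes that include the phosphatase Cdc25a and the RNA sensor Ddx58, also with 0 over 2-fold changed at either time and a median of -0.02 at 72 h. With a background at 72 h of 2.83% higher and 1.00% lower, nothing is read from a count of 0 among 14 or 8 probes. These values are of transcripts and say nothing of the proteins or their ubiquitin.

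Other families of the 2-cell embryo were set beside the Usp17l genes. At 72 h the background was 2.83% of probes over 2-fold higher. Zscan4 genes, which encode zinc finger proteins, had 7 of 7 probes over 2-fold higher at 72 h, with a median of 19.7-fold. Tcstv1 and Tcstv3 rose by 25.0-fold and 34.8-fold. Of the 7 probes of the Tdpoz genes, which encode TRAF and POZ domain proteins, 5 were over 2-fold higher and 1 stood at a log2 difference of -0.86. Of those 5, Tdpoz2 was measured at 19.98-fold, and the other 4 were well above background on the 2 Rif1 siRNA arrays alone, so that they passed the filter through these arrays and have only lower bounds, from at least 2.72-fold (Tdpoz3) to at least 23.0-fold (Tdpoz4). Between control siRNA and untreated cells, 6 of 7 Zscan4 probes were over 2-fold higher (background 0.585%), with a median of 2.16-fold. The Usp17l family had 3 of 7 in that comparison, a count that fell to 0 with normexp.

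**Figure D5:**
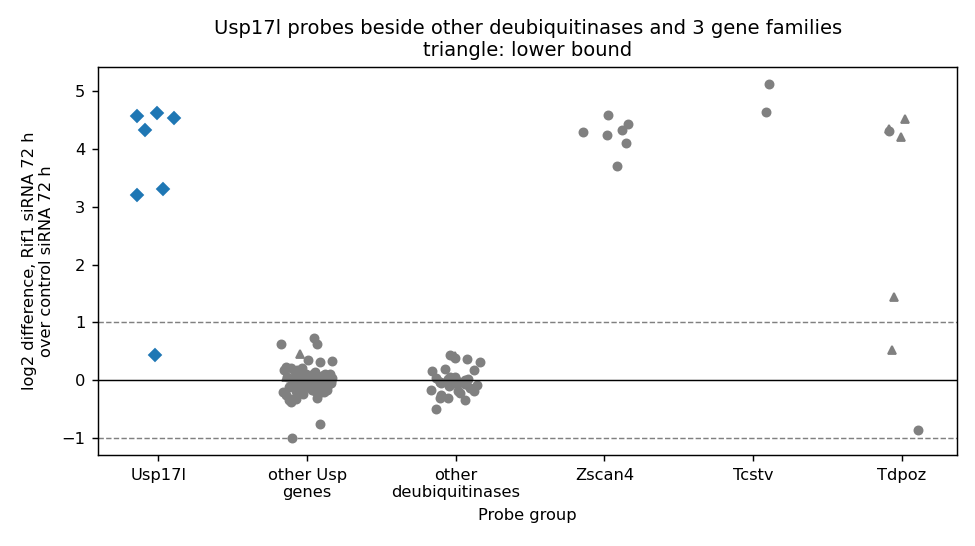
Log2 difference at 72 h of Rif1 siRNA over control siRNA for each probe of the Usp17l family, the other Usp genes, other deubiquitinase classes, and the Zscan4, Tcstv and Tdpoz families (points spread sideways for sight; triangles are lower bounds, dashed lines mark 2-fold). The other Usp probes lie between -0.99 and 0.73.

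The probes most like the family across the 4 arrays were found from the distance between log2 levels after each probe's own mean was removed, over 22513 other probes well above background on all arrays. The profile was the mean of the 5 Usp17l probes that were well above background on all arrays. The nearest was a probe of Gm2016 (distance 0.030), with levels of 3.78 (untreated), 5.41 (control siRNA), 59.4 (48 h) and 61.5 (72 h). Next came Lgals4 (0.098), a galectin of epithelia, with 0.198, 0.297, 3.09 and 3.39, an unnamed probe (A_55_P2108351; 0.158), Echdc3 (0.167), a member of the enoyl-CoA hydratase family, and Cacna1s (0.228), a subunit of the calcium channel of skeletal muscle. They rose by 11.4, 11.4, 11.7, 12.5 and 13.1-fold at 72 h. This profile includes the Usp17la probe that hardly moved. Without it, a choice made after the values were seen, the nearest with a gene symbol was another Gm2016 probe (0.117), at 17.5-fold.

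The identity of the cells was checked on marker genes. Of 15 probes for 10 ES cell genes, 14 were well above background in untreated cells and 15 on each other array. Their median level was 9.83 to 12.5, and 0 were over 2-fold changed at either time. The share over all probes was 2.83% higher and 1.00% lower at 72 h and 3.17% higher at 48 h. Nothing is read from a count of 0 among 15 probes. Trophoblast markers included 2 of 6 probes over 2-fold higher at 72 h (background 2.83%), Gata3 (2.86-fold) and Cdx2 (2.11-fold), at levels of 0.148 and 0.106, while Elf5 was not well above background without Rif1 siRNA. At 48 h 1 of the 6 was over 2-fold higher (background 3.17%), Gata3 at 3.596-fold, and Cdx2 stood at 1.44-fold. The summed level of that list was 4.04, 4.43, 4.03 and 4.25 over untreated, control siRNA, 48 h and 72 h, a sum that weights each probe by its own signal. Without the Tfap2c probe (3.72, 4.17, 3.54 and 3.79) it was 0.325, 0.261, 0.494 and 0.461 on the same arrays. The part of such cells in the rise of the Usp17l probes was not tested. For primitive endoderm, fibroblast and blood cell markers, 0 probes were over 2-fold changed at 72 h or 48 h. Nothing is read from a count of 0 among 7, 7 and 5 probes. Their median log2 differences at 72 h and 48 h were -0.20 and 0.48, 0.21 and 0.14, and -0.26 and -0.16. Single fibroblast probes ran from -0.27 to 0.82 at 72 h, and blood cell probes from -0.59 to 0.90 at 48 h.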

How the data were processed

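The authors deposited the output of Agilent Feature Extraction 11.5.1.1, in which the processed signal is an intensity after background subtraction and detrending, and a table in which it is given as a ratio to about the 75th percentile of the array. Levels were computed here as log2 of the processed signal minus log2 of the 75th percentile over 43020 non-control spots. Outlier spots were left out, no spot was saturated, and the 10 spots of 399 repeated probes were averaged. A probe passed the filter if it reached the 20th percentile on 1 array and was detected or compromised on at least 2 of 4; 27706 passed. A probe that was dim on one array of a pair was given the smallest bright level of that array, or its own where this was larger, and the fold is then a lower bound. No fold was given where both were dim. Errors combine the software's errors of both spots. Over repeated probes in the range of the Usp17l levels, the median SD between spots was 0.14 (log2) on the untreated array and 0.058 to 0.084 on the others.

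Members and lists were chosen with earlier results of these data known. Named were all Usp17l probes, Rif1, list members over 2-fold changed (at most 6 a list), changed neighbors and the 5 nearest profiles. Uap1, Trim6, Trim30d, Olfr630 and the members below 2-fold were named after their values were seen. Probe and RefSeq promoter sequences were compared without gaps and with a global alignment (biopython 1.88), respectively. Python 3.11.15, pandas 2.3.3, numpy 2.4.6, R 4.3.3 and limma 3.58.1 were used. The code for the calls was run on simulated data with changes well past the threshold and little noise. That run does not measure the error of calls made on single arrays. Alternatives used normexp (offset 50), quantile normalization, median scaling, the deposited ratios, signals as given, a 4-fold threshold, outlier spots kept, untreated cells as control and a 250 kb flank.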

Additional observations from a re-analysis of the deposited data

How the results depend on the processing

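No paired analysis was possible because every condition is a single array. A log2 value was called moved beyond 0.256, the SD of the log2 differences of control siRNA over untreated cells (not an SD of replicates), and a count beyond 1.5 times. Of 75 values under the alternatives, 64 stayed within these limits, 11 moved and 0 changed sign. Some of the 64 could not move, or hardly could. No Usp17l spot was an outlier, and the deposited ratios hold the same signals on nearly the same scale. Signals as given leave differences between bright values unchanged, and median scaling cancels in a difference between probes. The count of 64 thus overstates how much was put to the test. The number of Usp17l probes past the threshold (2-fold, or 4-fold in that alternative) was 6 at 72 h and 6 at 48 h under each alternative for which it was computed, which leaves out the 250 kb flank and, at 48 h, untreated cells as control. With normexp and its offset of 50, whose effects were not separated, the family median fell to 3.001 at 72 h and 2.77 at 48 h, the count for control siRNA over untreated cells to 0 and the neighbors over 2-fold higher to 1 (Trim12c was lost). That count of neighbors was also 1 with quantile normalization, median scaling and the 4-fold threshold, and 5 with signals as given. With the 4-fold threshold 0 Usp17l probes were higher for control siRNA over untreated cells. With signals as given 1 of the other Usp probes was over 2-fold higher. Against untreated cells the family median at 72 h was at least 4.86, a lower bound of Usp17le. Apart from the thresholds the cause of these moves was not tested. The difference between the Usp17la probes at 72 h ran from 4.18 to 4.27, whereas that between the Usp17lc probes was 0.21 in the main setting, 0.31 with quantile normalization and 1.39 with normexp. Depth is set by signal over background: the lowest level well above background was 0.0236 in untreated cells and 0.00630 at 72 h of Rif1 siRNA.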
